A study of Mus musculus with 12 samples.

Results

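Cells hold on to their neighbours through cadherins, whose outer domains bind each other across the gap between cells, and through desmosomes, in which the desmosomal cadherins (desmogleins and desmocollins) are tied to keratin filaments by plakoglobin, plakophilins and desmoplakin. Claudins seal the space between epithelial cells at tight junctions, and connexins form the gap junction channels that let ions and small molecules pass from cell to cell. In skin, E-cadherin and P-cadherin and the desmosomes are known from the epithelium, while other cadherins are known from mesenchyme, nerve and pigment cells. The genes described here are the cadherins (Cdh), desmogleins (Dsg), desmocollins (Dsc), desmoplakin (Dsp), plakoglobin (Jup), plakophilins (Pkp), claudins (Cldn) and connexins (Gja, Gjb, Gjc), taken by their symbols from the expression table. They number 76 of its 19150 genes, namely 23 cadherins, 15 desmosomal genes, 22 claudins and 16 connexins.

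From back skin of outbred CD1 mice at postnatal day 5, when hair follicles are growing, 6 cell populations were sorted by flow cytometry and sequenced as 2 libraries each. They are melanocytes (the pigment cells), matrix (the dividing epithelium at the base of the follicle), outer root sheath (the outer epithelial layer of the follicle), dermal sheath (the mesenchymal layer around it), dermal papilla (the mesenchymal cluster in its base) and dermal fibroblasts. The labels name no transgene, treatment or sorting marker for these libraries and do not tie a library to an animal, so p-values measure the spread between libraries, which may be technical. Values are FPKM, fragments scaled to transcript length and library size, so levels can be compared between genes. Differences between populations are log2 differences of FPKM + 1, which understates the change of genes with low values.

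The summed markers of each sorted population or tissue were highest where the labels place them, but some markers were high elsewhere too. The summed level of 7 melanocyte markers was 12000 and 15400 FPKM in melanocytes, but it was also 6850 to 7370 FPKM in dermal fibroblasts, against at most 98.9 FPKM in the other populations. Over 5 pigment genes the fibroblast libraries held a median of 48.9% and 50.8% of the melanocyte level. For comparisons with fibroblasts, the value after that share of melanocyte RNA is subtracted is also given for junction genes whose call or difference it moves. What is left after subtraction is scaled up to make good the share removed. A gene with more FPKM in fibroblasts than in melanocytes therefore rises, as Gja1 did from a fibroblast mean of 173.7 to 327.6 FPKM. Basal keratinocyte transcripts were present in the dermal libraries at a lower level, with a median over 5 genes of 2.31% to 4.95% of the outer root sheath level. The 8 hair matrix and shaft markers measured summed to 39.7 to 212 FPKM in dermal libraries and 186 to 197 FPKM in outer root sheath, against 787 to 802 FPKM in matrix. Among them Krt35 had 9.36 to 33.7 FPKM in dermal libraries, against 102 and 132 FPKM in matrix. Shh had at most 1.67 FPKM, against 51.5 and 44.2 FPKM. In dermal papilla Lef1 alone held 101 and 104 FPKM of the sum. The part of matrix RNA in the dermal libraries was not tested. Dcn, a dermal mesenchyme marker, had 482 and 407 FPKM in matrix. The dermal sheath markers Acta2 (36.7 and 59.1 FPKM) and Tagln (52.0 and 76.1 FPKM) were present in outer root sheath. Corin, a dermal papilla marker, had 61.9 and 107 FPKM in dermal sheath. All 7 endothelial markers together summed to at most 16.2 FPKM in any library. The library sets differed too: Malat1, an abundant nuclear RNA, had 1734 to 5039 FPKM in the 6 melanocyte, matrix and outer root sheath libraries and was listed at 0 in all 6 dermal ones. Ndufa4l2 (11.9 to 58.5 FPKM) and Rpl39l (14.1 to 40.2 FPKM) were present in the dermal libraries and at 0 in the other 6. Within the dermal set Col3a1 ranged from 0 to 1395 FPKM and Sparc from 0 to 9367 FPKM, so a listed 0 may not mean absence. In the melanocyte, matrix and outer root sheath libraries 4393 to 5333 genes were at 0, against 2677 to 3391 in the dermal ones. The labels describe preparation in sets of 3 populations with 2 libraries each, without naming the populations of a set, so a difference between epithelium and dermal populations cannot be told apart from a difference between library sets. The FPKM summed to 373066 to 524040 per library, and read depth is unknown.

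Summed levels of the junction gene families differed between the populations. Of the 76 genes, 51 passed the filter on low values (at least 1 FPKM in at least 2 of 12 libraries) and were tested, and 21 of the other 25 were under 1 FPKM in every library. The untested genes were 9 cadherins, 11 claudins, 4 connexins and Dsg1c. The summed desmosomal level averaged 1043 FPKM in matrix and 719 FPKM in outer root sheath, against 86.1 in melanocytes, 131.5 in dermal sheath, 72.5 in dermal papilla and 101 in dermal fibroblasts. Summed connexin levels were also highest in the epithelium, at 526.5 FPKM in matrix and 834 FPKM in outer root sheath, while the other 4 populations averaged 133 to 258 FPKM. Cadherins followed another order. Their sum was largest in dermal sheath (598 FPKM) and dermal papilla (462 FPKM), and it lay between 259.7 and 314 FPKM in melanocytes, matrix, outer root sheath and fibroblasts. Among the 51 tested genes the highest group mean fell in matrix for 22, in dermal papilla for 9, in melanocytes for 7, in outer root sheath for 6, in dermal sheath for 5 and in dermal fibroblasts for 2. For these counts and the next the matching shares of all genes were not computed, so they describe the junction genes only. Of the tested genes 6 were called in no comparison, namely Cldn12 (2.96 to 13.2 FPKM), Cldn25 (12.7 to 31.5 FPKM, a symbol shared by more than 1 gene), the endothelial genes Cdh5 (0.976 to 3.47 FPKM) and Cldn5 (at most 3.14 FPKM), and Cldn6 and Cldn15 (at most 1.53 and 1.6 FPKM).

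**Figure D1:**
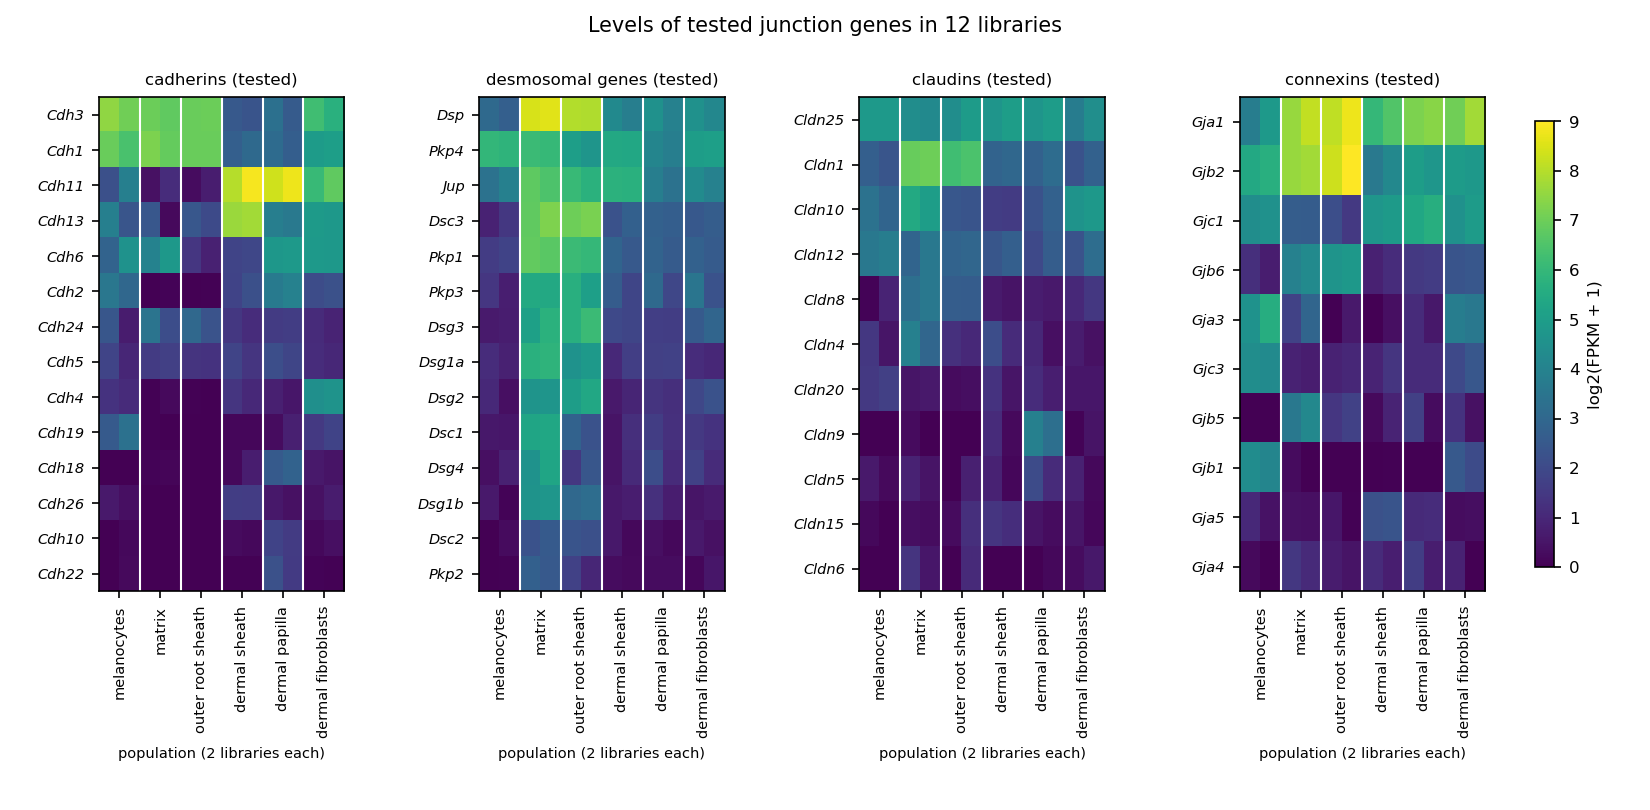
Level of tested junction genes in each of the 12 libraries, as log2(FPKM + 1) in colour, with 1 panel per family and genes ordered down each panel by level. Most desmosomal genes are brighter in the 4 epithelial libraries than elsewhere, Pkp4 and Jup being bright in dermal sheath too, whereas Cdh11 is bright in the 6 dermal libraries.

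The cadherins that made up the total differed from population to population. Cdh1 (E-cadherin) and Cdh3 (P-cadherin), the classical cadherins of epithelial adherens junctions, lie next to each other on chromosome 8 (Cdh3 at 106510891 to 106557297 and Cdh1 at 106603351 to 106670246, build mm10). Together they made up nearly all the cadherin transcript of the epithelium: Cdh1 held 46.5% and Cdh3 41.7% of the cadherin FPKM in matrix, and 47.2% and 47.7% in outer root sheath. Melanocytes had the same 2 genes in front, with 32.5% for Cdh1 and 49.6% for Cdh3. In dermal sheath Cdh11, a mesenchymal cadherin first known from osteoblasts, held 59.6% of the cadherin FPKM and Cdh13 (T-cadherin, which has a lipid anchor in place of a cytoplasmic tail) 36.0%. In dermal papilla Cdh11 alone held 81.2%, and in dermal fibroblasts 32.6%. Cdh1 held 1.1% in dermal sheath, 1.5% in dermal papilla and 11.4% in dermal fibroblasts.

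Among the connexins 1 gene was high in both tissues. Gja1, the most widespread connexin of skin, was the leading connexin of every dermal population, at 58.4% of the connexin FPKM in dermal sheath, 64.5% in dermal papilla and 66.4% in dermal fibroblasts. It shared the lead with Gjb2, a connexin whose mutations cause skin disease and deafness in human, in matrix (45.2% Gja1 and 39.0% Gjb2) and in outer root sheath (42.9% and 49.4%). Melanocytes had no such single leader, with Gjb2 at 28.4%, Gja3 at 21.0%, Gjc1 at 13.3%, Gja1 at 12.3%, Gjc3 at 12.2% and Gjb1 at 11.3%. These shares describe 2 libraries per population and carry no test.

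**Figure D2:**
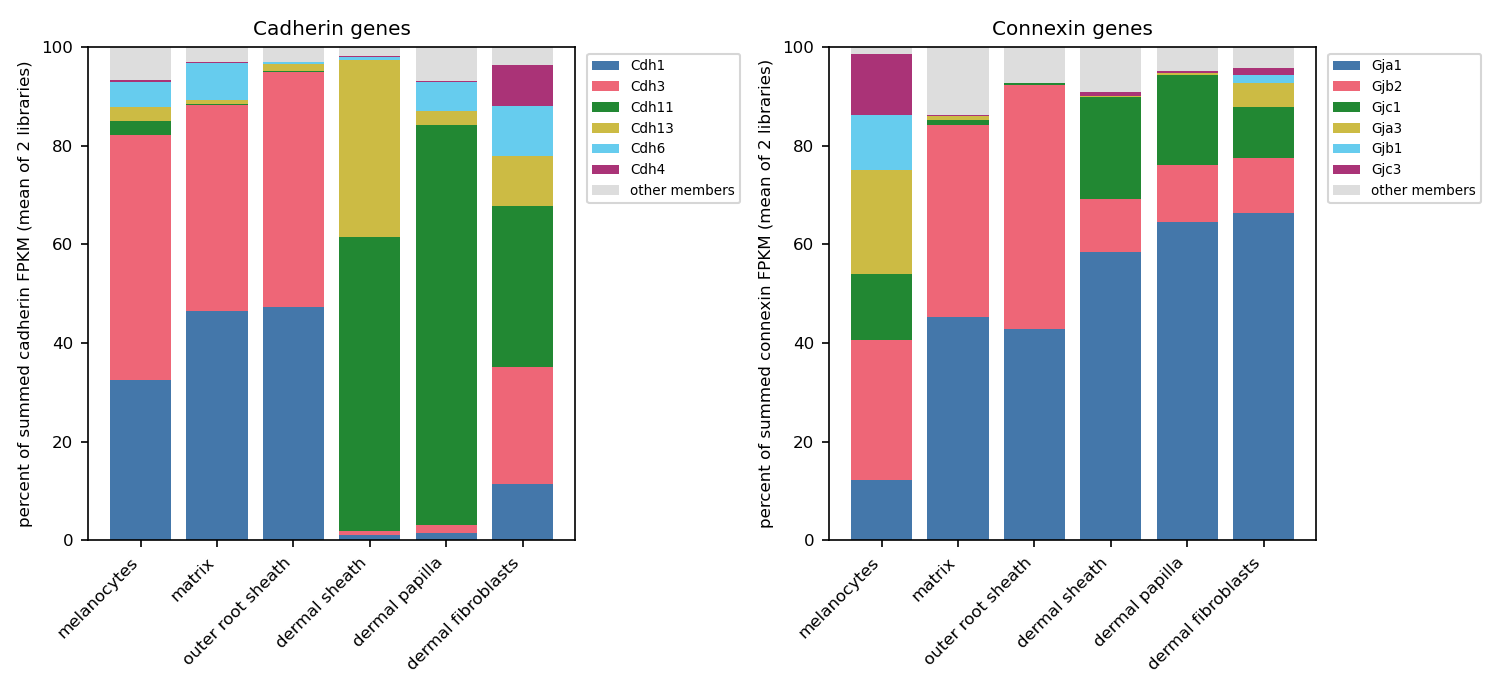
Share of the summed cadherin FPKM (left) and connexin FPKM (right) held by 6 named genes of each family and by all others, as the mean of 2 libraries per population. Cdh1 and Cdh3 fill most of the melanocyte, matrix and outer root sheath bars and Cdh11 most of the dermal papilla bar, at 81.2%.

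Follicle epithelium was set against dermal mesenchyme by comparing the mean of matrix and outer root sheath with the mean of the 3 dermal populations, in 1 limma fit to all 12 libraries with Benjamini-Hochberg adjustment over 13974 genes. Calls needed an adjusted p under 0.05 together with a log2 difference of 1 or more in either direction. Of the 51 tested junction genes, 25 were higher in the epithelium, against 15.4% of all genes tested, and 8 were lower, against 20.8% of all genes. The median log2 difference was 0.88 over the junction genes and -0.07 over all genes. All 13 tested desmosomal genes other than Pkp4 were higher in the epithelium and none was lower. Among the cadherins 3 were higher and 6 lower of 14 tested, among the claudins 3 higher and 1 lower of 11, and among the connexins 6 higher and 1 lower of 12.

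Desmosomal cadherins and plaque proteins formed the largest epithelial block. Dsp, the plaque protein that binds keratin filaments, had 346 and 388 FPKM in matrix and 246 and 244 FPKM in outer root sheath, against 13.4 to 22.7 FPKM in the 6 dermal libraries. The 2 sets were far apart, and the log2 difference was 4.01 (SE 0.17, adjusted p = 1.6e-08). Dsc3, a desmocollin of basal and lower layers, had 111 and 154 FPKM in matrix and 129.6 and 143 FPKM in outer root sheath, against 3.83 to 5.94 FPKM in dermal libraries. It had the largest positive difference of the 51 genes, at 4.46 (SE 0.18, adjusted p = 1.1e-08). Pkp1, the plakophilin of the upper skin layers, had 112 and 104 FPKM in matrix and 69.7 and 63.2 FPKM in outer root sheath, against 4.69 to 6.42 FPKM in dermal libraries. Its difference was 3.71. Dsg2 and Dsg3, 2 desmogleins, differed by 3.56 each, Dsg1a by 3.87 and Dsg1b by 3.16, but reads of the near-identical Dsg1a, Dsg1b and Dsg1c could be split among the copies, so their values are uncertain. Pkp3 (2.88), Dsc1 (2.71), Dsg4 (2.17), Dsc2 (1.95) and Pkp2 (1.69) followed.

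Plakoglobin and Pkp4 did not follow that pattern. Jup, which joins desmosomes and also adherens junctions, had 109 and 89.0 FPKM in matrix and 66 and 53.1 FPKM in outer root sheath, against 53.5 and 51.0 FPKM in dermal sheath, 13.5 and 9.58 in dermal papilla and 19.4 and 14.4 in dermal fibroblasts. The first sheath library lay just above the second outer root sheath library, so the tissues overlapped, and the difference was 1.77 (SE 0.17, adjusted p = 5.5e-06). Pkp4, a relative of the p120-catenin group found at adherens junctions as well, ranged over 24.7 to 69.7 FPKM in the epithelium and 13.6 to 41.8 FPKM in the dermal libraries, and was not called. The sheath mean as a share of the outer root sheath mean was 87.8% for Jup and 146% for Pkp4. For 8 other desmosomal genes with at least 5 FPKM in outer root sheath the corresponding median was 6.42% in dermal sheath, 8.03% in dermal papilla and 8.19% in dermal fibroblasts. Over 5 basal keratinocyte genes it was 2.47% in sheath, 3.85% in papilla and 3.43% in fibroblasts. The part of keratinocyte transcripts in the low desmosomal levels of the dermal libraries was not tested.

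Classical cadherins split by tissue. Cdh1 had 147 and 118 FPKM in matrix and 122 and 123 FPKM in outer root sheath, against 5.61 and 7.42 FPKM in dermal sheath, 7.96 and 5.49 in dermal papilla and 29.5 and 31.7 in dermal fibroblasts. Cdh3 had 126 and 110.5 FPKM in matrix and 123 and 125 FPKM in outer root sheath, against 4.67 and 4.0 in dermal sheath, 9.0 and 5.02 in dermal papilla and 74.0 and 52.0 in dermal fibroblasts. No library of one tissue overlapped the other, with the fibroblasts the nearest, and the differences were 3.40 (SE 0.17) for Cdh1 and 3.15 (SE 0.19) for Cdh3 (adjusted p = 3.6e-08 and 1.2e-07). After melanocyte RNA was subtracted from the fibroblasts they were 5.06 for Cdh1 and 5.14 for Cdh3. Cdh24, a type II cadherin with 3.40 to 9.94 FPKM in epithelial and 0.85 to 2.09 FPKM in dermal libraries, was the third cadherin higher in the epithelium.

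Cdh11 was close to absent from the epithelium. It had 0.331 and 1.19 FPKM in matrix and 0.218 and 0.667 FPKM in outer root sheath, against 256 and 471 FPKM in dermal sheath, 322 and 431 in dermal papilla and 66 and 112 in dermal fibroblasts. The log2 difference of -7.17 (SE 0.33, adjusted p = 2.5e-08) was the largest in size among the 51 genes. Cdh13 was lower in the epithelium by 3.64, with dermal sheath far above the other dermal populations. Cdh2 (N-cadherin, the classical cadherin of nerve and mesenchyme) had at most 0.0551 FPKM in any epithelial library, against 2.55 to 3.72 FPKM in sheath and fibroblasts and 12.2 and 14.4 FPKM in papilla, and differed by -2.64. Cdh4 (R-cadherin, -2.06) was high in fibroblasts alone among the dermal populations, and it and Cdh6 (-1.06) were not called when fibroblasts were left out of the dermal mean. Cdh18, a type II cadherin known from brain, differed by -1.18.

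**Figure D3:**
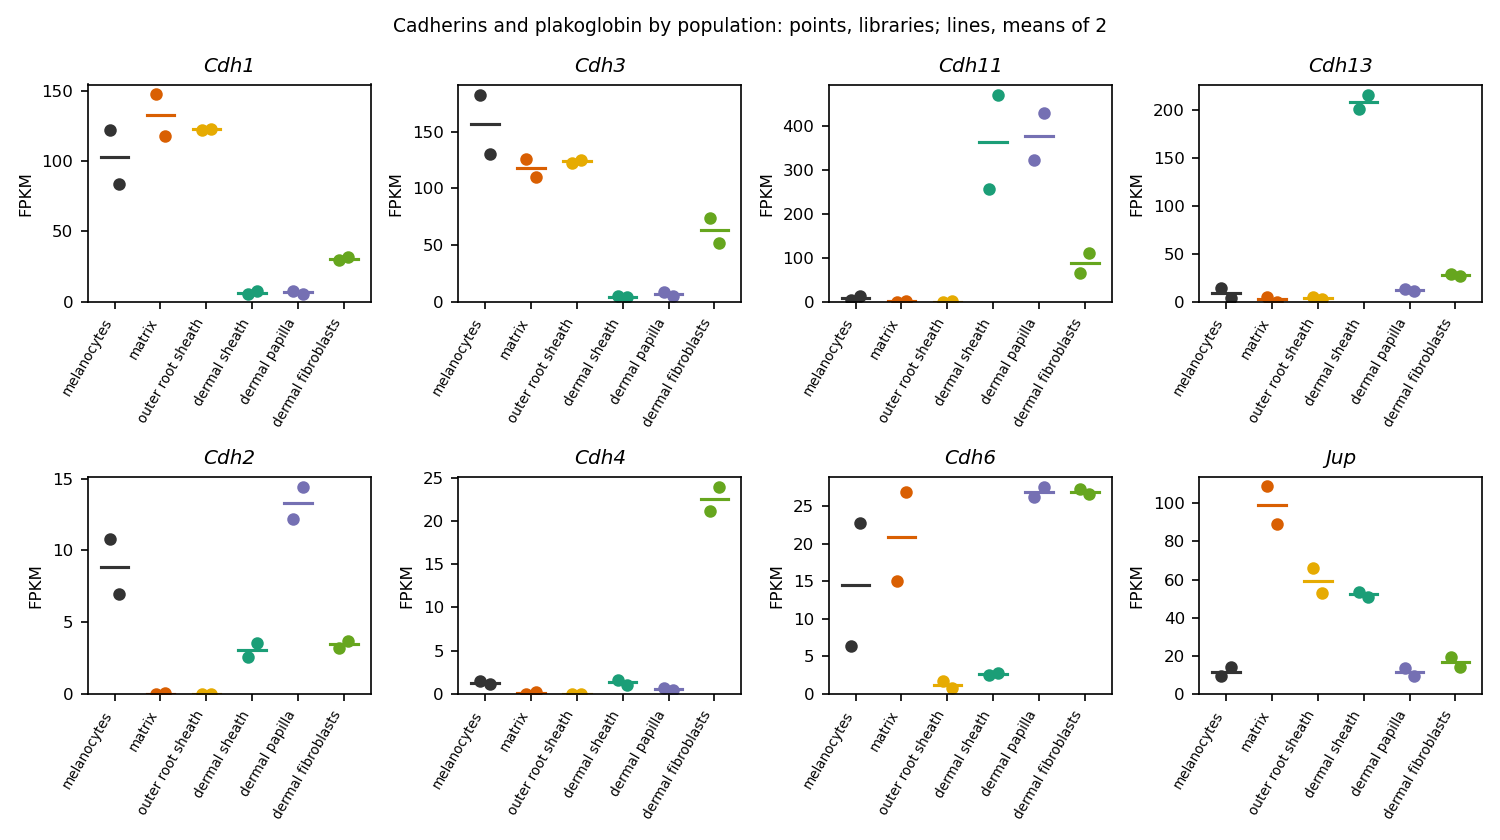
FPKM of 7 cadherins and of plakoglobin (Jup) in each population; points are libraries, lines are means of 2, and each panel has its own axis starting at 0. Cdh1 and Cdh3 are high in the first 3 populations, Cdh11 in the last 3, Cdh13 in dermal sheath (201 and 216 FPKM), Cdh2 in dermal papilla and melanocytes, and Cdh4 in dermal fibroblasts.

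Claudins and connexins had calls in both directions. Cldn1, which the epidermal barrier of mice requires, had 118 and 127 FPKM in matrix and 74.1 and 87.1 FPKM in outer root sheath, against 3.81 to 8.05 FPKM in dermal libraries, a difference of 3.83 (SE 0.17, adjusted p = 1.7e-08). Cldn8 and Cldn4 were higher by 2.22 and 1.34, and Cldn9 was lower by 1.44 through dermal papilla. Gjb2 had 195 and 214 FPKM in matrix and 315 and 515 FPKM in outer root sheath, against 11.5 to 31.2 FPKM in dermal libraries, and Gjb6, its partner in keratinocyte and inner ear channels, 14.4 and 18.8 FPKM in matrix and 24.5 and 27.1 FPKM in outer root sheath, against 0.779 to 4.38 FPKM. Their differences were 3.62 and 2.80, and Gjb5 (1.94) was higher as well. Gja1 was high in both tissues, with 192 to 438 FPKM in epithelial and 62.8 to 215 FPKM in dermal libraries, so that the tissues overlapped, and its difference of 1.17 fell to 0.87 and was no longer called after melanocyte RNA was subtracted from the fibroblasts. Gjc1, a connexin known from smooth muscle and heart, ran the other way, with 5.26 and 5.12 FPKM in matrix and 3.50 and 1.83 FPKM in outer root sheath, against 22.7 to 49.5 FPKM in the dermal libraries, a difference of -2.79 (SE 0.17, adjusted p = 1.9e-07).

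The promoters of 5 junction genes that were higher in the epithelium are given here because factors of the SNAI and ZEB families, which are known to repress epithelial junction genes, bind the letters CACCTG. Each is the 300 bases from 250 before to 50 after the annotated start, from RefSeq on GRCm38.p6, written 5′ to 3′ on the gene's strand with CACCTG or its reverse complement CAGGTG in capitals. Dsp is at chr13:38151044-38151343 (plus strand), Gjb2 at chr14:57104653-57104952, Gjb6 at chr14:57133562-57133861, Cldn4 at chr5:134946885-134947184 and Cldn1 at chr16:26371790-26372089 (all minus strand).
Dsp: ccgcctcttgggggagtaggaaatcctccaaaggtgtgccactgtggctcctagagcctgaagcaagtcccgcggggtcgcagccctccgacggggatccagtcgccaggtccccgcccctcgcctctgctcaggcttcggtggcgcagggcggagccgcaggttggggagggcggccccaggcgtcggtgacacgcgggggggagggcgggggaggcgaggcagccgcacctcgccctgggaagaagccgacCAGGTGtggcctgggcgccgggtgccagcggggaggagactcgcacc
Gjb2: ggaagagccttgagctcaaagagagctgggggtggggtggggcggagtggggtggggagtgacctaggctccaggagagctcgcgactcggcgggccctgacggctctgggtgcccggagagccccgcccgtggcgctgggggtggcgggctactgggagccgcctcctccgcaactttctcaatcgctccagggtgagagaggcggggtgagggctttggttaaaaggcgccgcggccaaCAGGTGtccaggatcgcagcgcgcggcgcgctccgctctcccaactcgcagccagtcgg
Gjb6: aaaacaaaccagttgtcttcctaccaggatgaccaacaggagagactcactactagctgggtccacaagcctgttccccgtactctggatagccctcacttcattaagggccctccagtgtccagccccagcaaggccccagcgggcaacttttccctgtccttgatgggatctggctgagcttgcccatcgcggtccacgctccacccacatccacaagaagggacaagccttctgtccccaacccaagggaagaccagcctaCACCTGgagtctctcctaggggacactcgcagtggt
Cldn4: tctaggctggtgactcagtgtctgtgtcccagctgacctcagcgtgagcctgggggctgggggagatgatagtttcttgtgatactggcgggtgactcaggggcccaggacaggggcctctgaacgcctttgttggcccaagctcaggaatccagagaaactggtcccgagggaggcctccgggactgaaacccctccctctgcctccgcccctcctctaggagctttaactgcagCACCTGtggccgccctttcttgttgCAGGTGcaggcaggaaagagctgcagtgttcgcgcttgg
Cldn1: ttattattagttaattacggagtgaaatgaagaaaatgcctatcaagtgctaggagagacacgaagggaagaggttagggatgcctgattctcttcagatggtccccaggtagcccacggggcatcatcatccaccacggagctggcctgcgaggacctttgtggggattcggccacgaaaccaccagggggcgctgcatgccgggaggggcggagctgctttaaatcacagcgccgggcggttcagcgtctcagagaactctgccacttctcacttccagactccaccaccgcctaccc
The motif began at base 4 after the start in Dsp, 9 bases before it in Gjb2 (position -9), at base 15 in Gjb6 and at positions -14 and 12 in Cldn4, and Cldn1 is shown as a window without it. Of the 25 genes called higher in the epithelium, 9 had a promoter in the table, Cdh1 and Cdh3 not among them, and 4 of these 9 held the motif on either strand (44.4%). Of the 45 junction genes with a promoter, 12 held it (26.7%), as did 22.6% of all genes in the table and 20.2% of all 32851 promoters of this length. Of the 8 genes called lower 2 had a promoter in the table, and 0 of these held it. A match describes these letters in this window and says nothing about binding.

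The factors themselves were divided between the tissues. Of 17 tested regulators of epithelial and mesenchymal cadherins, 8 were higher and 6 lower in the epithelium (82.4% called, against 36.2% of all genes in either direction). Trp63, the master regulator of stratified epithelium, averaged 307.5 FPKM in the epithelium and 16.0 FPKM in the dermal populations, a difference of 4.24. The repressors Twist1 and Zeb2 averaged 0.200 and 0.427 FPKM in the epithelium, against 93.9 and 76.3 FPKM in the dermal populations, with differences of -6.05 and -5.55. Snai1 and Zeb1 were called lower as well (-3.91 and -3.72). They averaged 0.107 and 0.0738 FPKM in the epithelium, against 16.65 and 15.9 FPKM in the dermal populations. Snai2, also of the SNAI family, was not called, at 34.5 FPKM in the epithelium and 46.9 FPKM in the dermal populations (-0.05). Twist2 was listed at 0 in all epithelial libraries and averaged 74.8 FPKM in the dermal ones. Klf4 was called lower too (-1.32), at 30.7 FPKM in the epithelium and 80.3 FPKM in the dermal populations, and the tissues overlapped. Of 27 tested junction partners outside the 4 families, 14 were higher in the epithelium and 4 lower. Perp, a membrane protein of desmosomes, averaged 1088 FPKM in the epithelium and 55.7 FPKM in the dermal populations (difference 4.25). Jam2 and Ppl, a junctional adhesion molecule and the plakin periplakin, differed by -3.47 and 3.44, and Tmem47, a junction-associated membrane protein, by -4.17. The catenins that tie cadherins to actin were present in both tissues, and neither Ctnna1 nor Ctnnb1 was called. Ctnna1 averaged 120.1 and 100.3 FPKM in epithelium and dermal populations, and the tissues overlapped. Ctnnb1 averaged 396.0 and 251 FPKM and was higher in every epithelial library. Its difference of 0.67 (adjusted p = 0.0012) was under the log2 limit of 1.

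Within the epithelium, matrix was set against outer root sheath. Of the 51 genes 11 were higher in matrix, against 2.51% of all genes, and 0 were lower, against 4.59% of all genes. The median difference was 0.26 over the junction genes and 0.03 over all genes. The 11 were 6 desmosomal genes of 14 tested, 2 claudins, 2 connexins and 1 cadherin. Several of them are known from differentiating layers or the hair shaft, and are given with their values below.

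Dsg4, the desmoglein of the hair shaft whose loss causes brittle hair in mice and human, had 23.1 and 38.2 FPKM in matrix, against 1.77 and 4.26 FPKM in outer root sheath, a log2 difference of 3.01 (SE 0.46, adjusted p = 0.0025). Dsc1, a desmocollin of upper epidermal layers, had 37.7 and 40.4 FPKM in matrix, against 6.19 and 3.81 FPKM in outer root sheath, a difference of 2.77 (SE 0.32, adjusted p = 0.00058). For both genes every matrix library lay well above both outer root sheath libraries. Dsg1b (1.55), Pkp2 (1.29), Pkp4 (1.23) and Dsg1a (1.07) were higher by less, and the call of Dsg1a (adjusted p = 0.046) was lost under 13 alternatives, most of which left its difference unchanged. Dsp, Jup and Cldn1 were also above the outer root sheath range in both matrix libraries, but their differences of 0.58, 0.73 and 0.60 were not called (adjusted p = 0.28, 0.15 and 0.24).

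Outside desmosomes, Cdh6, a type II cadherin known from kidney, had 15.0 and 26.9 FPKM in matrix, against 1.68 and 0.782 FPKM in outer root sheath, a difference of 3.27 (SE 0.47, adjusted p = 0.0019). Cldn10 had 43.5 and 31.5 FPKM in matrix, against 4.47 and 4.10 FPKM in outer root sheath (2.85), and Cldn4 14.1 and 6.80 FPKM, against 1.36 and 1.05 FPKM (2.30). The connexins Gjb5 and Gja3 were higher by 2.33 and 2.04. Cdh1 was not called and differed by 0.10 between matrix and outer root sheath, with a 95% interval of -0.47 to 0.68. Gjb2 lay below the outer root sheath range in both matrix libraries, by 0.98, without passing the limma threshold (adjusted p = 0.060), and was called under quantile normalization (-1.21) or without the first outer root sheath library (-1.33). Without the second outer root sheath library 5 of the 51 genes were called higher, without the first 7, and without the second matrix library 6. Dsg4, Dsc1, Cldn10 and Cdh6 kept their calls whichever of these 4 libraries was left out, and the calls of Cldn4 and Pkp4 were lost without the second outer root sheath library (2.20 and 1.05). Of 27 tested junction partners, 3 were higher (Pvrl4, Marveld2, Ppl, by 1.97, 1.70 and 1.11) and 1 was lower (Vcl, the actin linker vinculin, by 1.26), and of the regulators 4 of 17 were higher, led by Ovol1 at 3.27 (7.11% of all genes were called in either direction).

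**Figure D4:**
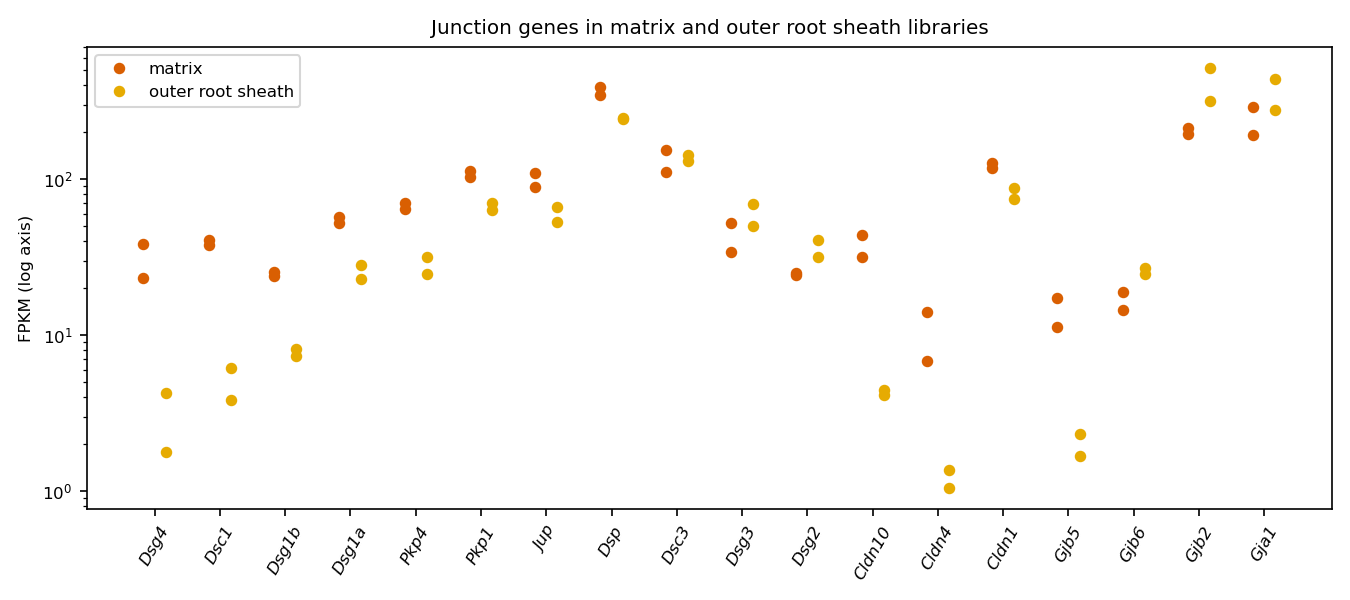
FPKM on a log axis of 18 junction genes in each matrix and outer root sheath library, with matrix points left of outer root sheath points for each gene. Among the genes drawn, the 2 pairs are furthest apart for Dsg4, Dsc1, Cldn10, Cldn4 and Gjb5. For Gjb2 (195 and 214 FPKM in matrix, 315 and 515 FPKM in outer root sheath), Gjb6 and Dsg2 the order is turned round.

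Cadherins differed among all 3 dermal populations. In dermal sheath minus dermal fibroblasts 5 of 51 genes were higher, against 7.07% of all genes, and 11 were lower, against 6.37% of all genes. In dermal papilla minus dermal fibroblasts 6 were higher, against 7.5% of all genes, and 10 were lower, against 6.68% of all genes. In dermal sheath minus dermal papilla 5 were higher, against 7.41% of all genes, and 6 were lower, against 7.18% of all genes. Each population enters 2 of these 3 comparisons, so their results are not independent. Of the 14 tested cadherins 8, 9 and 7 were called in the 3 comparisons in that order, with 2, 2 and 2 of 14 desmosomal genes, 1, 2 and 1 of 11 claudins and 5, 3 and 1 of 12 connexins. After melanocyte RNA was subtracted from the fibroblasts, 12 genes were called higher and 10 lower in sheath and 13 higher and 6 lower in papilla. The subtraction changes the fibroblast values of all genes, so these counts cannot be set against the shares above.

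Dermal sheath was marked by Cdh13 and Jup. Cdh13 had 201 and 216 FPKM in dermal sheath, against 28.7 and 26.6 FPKM in dermal fibroblasts and 13.5 and 11.6 FPKM in dermal papilla. It was higher in sheath by 2.87 than in fibroblasts (SE 0.62, adjusted p = 0.0080, not called without the second fibroblast library at 2.82, and 2.15 after melanocyte subtraction) and by 3.96 than in papilla (SE 0.62, adjusted p = 0.00095). Jup was higher in sheath by 1.59 than in fibroblasts (SE 0.27, adjusted p = 0.0016) and by 2.11 than in papilla (adjusted p = 0.00022), and both remained called after outer root sheath RNA was subtracted from the dermal libraries, at 1.71 and 2.34. Pkp4 had 41.8 and 40.8 FPKM in sheath, against 15.9 and 13.6 FPKM in papilla, and was higher by 1.43. Gja5, an arterial and cardiac connexin, had 3.69 and 4.05 FPKM in sheath, against 1.09 and 1.19 in papilla and 0.241 and 0.274 in fibroblasts, and it and Cdh26 (2.11 and 2.01 FPKM in sheath, against at most 0.626 FPKM in papilla and fibroblasts) were called in both comparisons at these low levels. Gja1 was lowest in sheath, at 62.8 and 93.3 FPKM, against 149 and 167 in papilla and 132 and 215 in fibroblasts, but was not called (adjusted p = 0.11 and 0.086). After melanocyte subtraction sheath minus fibroblasts was -2.03 for Gja1 and was called.

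Of the 14 tested cadherins 6 had their highest group mean in dermal papilla, where Cdh11 alone held 81.2% of the cadherin FPKM. The matching share of all genes was not computed. Cdh2 had 2.55 and 3.58 FPKM in sheath and 12.2 and 14.4 FPKM in papilla, against 3.23 and 3.72 FPKM in fibroblasts, so that papilla minus fibroblasts was 1.67 and sheath minus papilla -1.82 (adjusted p = 0.0015 and 0.00085). After melanocyte subtraction papilla minus fibroblasts was 3.83 for Cdh2. Cdh18 had 0.15 and 0.637 FPKM in sheath and 4.84 and 6.13 FPKM in papilla, against 0.534 and 0.398 FPKM in fibroblasts. Cdh10 (2.53 and 1.94 FPKM in papilla) and Cdh22 (3.68 and 1.87 FPKM in papilla) were at most 0.302 FPKM in every other library. All 3 are type II cadherins known from brain, and all were called in both papilla comparisons. Cldn9, a claudin known from the inner ear, had 1.15 and 0.159 FPKM in sheath and 14.1 and 8.67 FPKM in papilla, against 0.0576 and 0.375 FPKM in fibroblasts. Papilla minus fibroblasts was 3.32 (SE 0.32, adjusted p = 2.8e-05) and sheath minus papilla -2.93. The papilla libraries lay above all others for each of these genes. Gjc1 was highest in papilla, at 40.4 and 49.5 FPKM. Without either papilla library 2 genes in place of 6 were called higher than in fibroblasts.

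Between sheath and papilla Cdh11 was not called, with a difference of -0.10 and a 95% interval of -1.24 to 1.04. It was higher than in fibroblasts by 2.0 in sheath and 2.1 in papilla (SE 0.52 each, adjusted p = 0.022 and 0.016). Those calls were lost after melanocyte RNA was subtracted from the fibroblasts (1.09 and 1.19), with a pseudocount of 0.1, and without the first fibroblast library (1.63 and 1.73). The sheath call was lost without the second sheath library (1.56), and the papilla call without either papilla library (2.31 and 1.89).

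Genes that were lower in sheath or papilla than in fibroblasts fall into 2 kinds when set beside melanocytes. Cdh4 had 1.62 and 1.08 FPKM in sheath and 0.71 and 0.457 FPKM in papilla, against 21.2 and 23.9 FPKM in fibroblasts, where melanocytes had 1.48 and 1.15 FPKM. It was lower by 3.33 in sheath and by 3.90 in papilla (adjusted p = 4.4e-06 and 1.6e-06). Cldn10 had 2.09 and 1.95 FPKM in sheath and 3.85 and 6.02 FPKM in papilla, against 23.5 and 27 FPKM in fibroblasts, which was 317% of the melanocyte mean, and was lower by 3.11 in sheath and by 2.16 in papilla. Cdh6 had 2.56 and 2.75 FPKM in sheath and 26.2 and 27.6 FPKM in papilla, against 27.3 and 26.6 FPKM in fibroblasts, and was lower in sheath than in fibroblasts by 2.94. After the melanocyte share was subtracted and the rest scaled up, the fibroblast means of these 3 were 43.7, 42.5 and 39.3 FPKM. Their sheath differences were then -4.26, -3.84 and -3.46. All 3 had more FPKM in fibroblasts than in melanocytes, so the step could only raise them. That they kept their calls is therefore no test of the melanocyte share.

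The second kind were genes whose fibroblast mean was below the melanocyte mean. It was 29.8% of the melanocyte mean for Cdh1, 40.3% for Cdh3, 34.4% for Gja3, 31.0% for Cdh19, 22.0% for Gjb1 and 18.9% for Gjc3. For 5 pigment genes it ranged from 21.1% to 64.6% with a median of 48.7%, so all 6 genes lay under that median and Gjc3 under the range. As deposited, Cdh3 was lower in sheath by 3.57 and in papilla by 3.02, and Cdh1 by 2.08 and 2.05. After the melanocyte share was subtracted, all 6 genes, and also Cdh2, stood at 0 in both fibroblast libraries, which follows from a fibroblast level under the share subtracted, and the differences of sheath and papilla from fibroblasts then were 0 or above. The part of melanocyte RNA in the fibroblast levels of these 6 genes was not tested. Pkp4, with a fibroblast mean of 54% of the melanocyte mean, was lower in papilla by 1.07 as deposited and higher by 1.43 after subtraction. Gjb6 and Dsg2 were lower in sheath than in fibroblasts by 1.40 and 1.30, and Dsg3 was lower in papilla by 1.10, all at 6.67 FPKM or less, and after subtraction by 2.09, 1.97 and 1.92. In these bulk libraries, fewer cells of a type and less RNA per cell cannot be told apart.

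Among the junction partners, Vcl averaged 115 FPKM in sheath, against 15.1 FPKM in fibroblasts and 43.9 FPKM in papilla, and was higher by 2.83 and 1.36. Cgnl1, a paracingulin of junctions, averaged 64.9 FPKM in sheath, against 7.81 FPKM in papilla (2.90), and Jam2 61.5 FPKM in papilla, against 7.29 FPKM in fibroblasts (2.93). In all, 3, 4 and 4 of 27 partners were called in the 3 comparisons, where 13.4%, 14.2% and 14.6% of all genes were called in either direction. Of the regulators, Snai2, a repressor of Cdh1, averaged 105 FPKM in papilla and 17.9 FPKM in fibroblasts (2.51). Twist2 and Zeb1 went the other way and were called lower in papilla than in fibroblasts (-2.49 and -1.59). Klf5 averaged 55.4 FPKM in sheath and 5.89 FPKM in fibroblasts (3.11). Of the 17 regulators 7, 3 and 7 were called.

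Melanocytes were last set against matrix, the epithelium in which the pigment cells of the follicle sit, with the same matrix libraries as in the comparison with outer root sheath. Of the 51 genes 10 were higher in melanocytes, against 14.5% of all genes, and 24 were lower, against 14.1% of all genes. The median difference was -0.95 over junction genes and -0.03 over all genes. Cdh1 and Cdh3 were not called, while most desmosomal genes and connexins were lower in melanocytes. Of the desmosomal genes 13 of 14 were lower, of the claudins 4 of 11, of the connexins 7 of 12 and of the cadherins 0 of 14.

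Cdh1 had 122 and 83.4 FPKM in melanocytes, against 147 and 118 FPKM in matrix, and Cdh3 183 and 130.4 FPKM in melanocytes, against 126 and 110.5 FPKM in matrix. Neither was called, with differences of -0.38 (95% interval -0.95 to 0.19) and 0.39 (-0.25 to 1.02). Pkp4 also stood close, with 61.9 and 56.9 FPKM in melanocytes, against 69.7 and 64.3 FPKM in matrix (-0.17, interval -0.63 to 0.29). Pkp4 alone held 70.6% and 67.2% of the desmosomal FPKM of the melanocyte libraries. By contrast Dsp had 7.51 and 5.6 FPKM in melanocytes, against 346 and 388 FPKM in matrix (-5.62, SE 0.27, adjusted p = 1.6e-07), and Dsc3 0.807 and 1.74 FPKM, against 111 and 154 FPKM (-5.89). The other desmosomal calls ran from -5.07 for Pkp1 to -2.29 for Dsc2. Jup had 9.60 and 14.0 FPKM in melanocytes, against 109 and 89.0 FPKM in matrix, a difference of -2.98. Ctnnd1, the p120-catenin that steadies classical cadherins, averaged 281 FPKM in melanocytes and 139 FPKM in matrix, and was called higher.

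Some claudins and most connexins were lower in melanocytes as well. Cldn1 had 5.54 and 4.24 FPKM in melanocytes, against 118 and 127 FPKM in matrix (-4.40). Gja1 had 13.0 and 28.4 FPKM in melanocytes, against 192 and 288 FPKM in matrix (-3.55, adjusted p = 4.4e-05), which was also the lowest Gja1 level of the 6 populations. Gjb2 was lower by 2.13 and yet, at 42.2 and 49.8 FPKM, remained the leading melanocyte connexin. Gjb5 (-3.90) and Gjb6 (-3.16) were lower too, as were Gja4 (-1.15), Cldn8 (-2.94), Cldn4 (-2.44) and Cldn10 (-2.11).

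Of the 10 genes higher in melanocytes, 5 with their values follow. Gjb1, a connexin of Schwann cells and liver, had 19.8 and 16.0 FPKM in melanocytes, against 0.187 and 0 FPKM in matrix (4.11, SE 0.24, adjusted p = 4.9e-07). Gjc3, a connexin of glia, had 20.4 and 18.6 FPKM in melanocytes, against 0.811 and 0.629 FPKM in matrix (3.57), and Gja3, best known from the lens, 22.9 and 47.7 FPKM, against 2.44 and 6.62 FPKM (2.74). Cdh19, a cadherin of the Schwann cell lineage, had 4.81 and 9.22 FPKM in melanocytes, against 0.0469 and 0 FPKM in matrix (2.91), and Cdh2 10.8 and 6.96 FPKM, against 0 and 0.0551 FPKM (3.24). For these 5 genes each melanocyte library lay above every matrix library. The 5 Schwann cell markers measured summed to 76.2 and 90.6 FPKM in melanocytes and to 21.4 and 27 FPKM in matrix, and their part in these levels was not tested.

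Gjc1 (1.85), Cdh4 (1.06) and Cldn20 (1.02) were higher in melanocytes, as were Cdh11 (3.55 and 13.7 FPKM in melanocytes, against 0.331 and 1.19 FPKM in matrix, a difference of 2.26) and Cdh13 (1.79, adjusted p = 0.044). The melanocyte libraries differed from each other in Cdh11, which was not called without the second melanocyte library (1.41) or without the first matrix library (1.90), and the Cdh13 call was lost under 15 alternatives. Of the 27 junction partners 5 were higher and 15 lower in melanocytes (28.6% of all genes were called in either direction), with Perp at 18.8 FPKM in melanocytes and 1255 FPKM in matrix (-5.99). Of the regulators 2 were higher and 10 lower. Zeb2 averaged 69.2 FPKM in melanocytes and 0.603 FPKM in matrix (5.44), and Trp63 1.85 FPKM in melanocytes and 256 FPKM in matrix (-6.52).

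**Figure D5:**
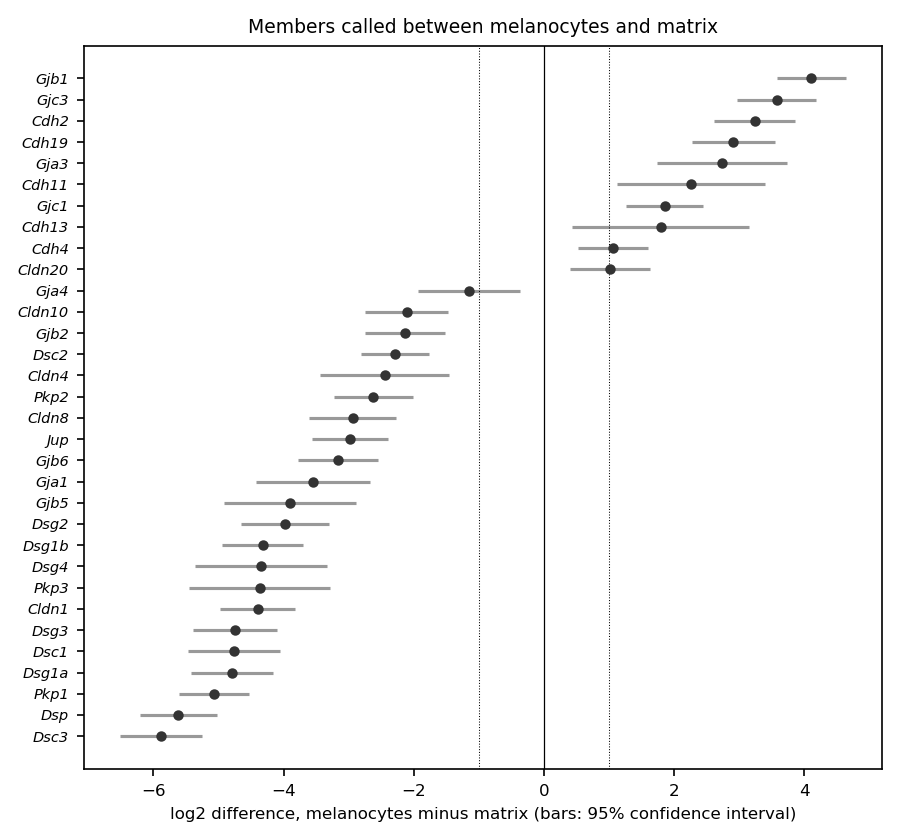
Log2 difference, melanocytes minus matrix, of junction genes called, with 95% confidence intervals from the limma fit; dotted lines mark a difference of 1 in either direction. The genes right of 0 are led by Gjb1 at 4.11 and Gjc3 at 3.57, and Dsc3 at -5.89 and Dsp at -5.62 lie furthest left.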

How the data were processed

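RNA of 6 sorted populations (2 libraries each) had an integrity number of at least 8, and 6 ng went through Ovation RNA-seq V2 amplification before 100 ng of cDNA entered library preparation, per the labels' protocols. The deposited table holds 1 column of FPKM per library, made by the authors. The unit was inferred from the values and from the tools, since the submitters' processing notes name Cufflinks 2.1.1 beside Bowtie2, TopHat2 2.0.3 and build mm10, and the tools' roles and the annotation are not given in the sources used here. Read counts and depth are unknown, so no counting interval is given. FPKM of a short or multi-copy gene depends on how the tool shared reads out, and amplification can alter levels.

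FPKM were analysed here as log2(FPKM + 1) without further scaling. All 12 libraries entered 1 limma 3.58.1 fit (R 4.3.3) of 6 population means with an intensity trend and 6 residual degrees of freedom. The 13974 genes that reached 1 FPKM in 2 or more libraries were tested. P-values are two-sided and adjusted by the Benjamini-Hochberg method within each of 6 comparisons, and genes were called at an adjusted p under 0.05 and a log2 difference of at least 1. In simulated data for matrix against outer root sheath (13974 genes, 50 changed at each size), 25, 49, 50 and 50 genes were recovered at log2 changes of 1, 1.5, 2 and 3, with 7 false calls. The changed genes were drawn from well expressed genes only. Populations otherwise shared 1 mean per gene, and the noise was normal with a smoothed median spread. Recovery of genes with low levels or a larger spread was thus not measured.

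The members and lists were chosen with earlier results of these data known. Named genes are, per comparison and direction, up to 8 called members with the largest difference, a mean of 5 FPKM or more in the higher of the populations and libraries that do not overlap, members with a group mean of at least 20 FPKM, members with 1 library at 0 and another above 20 FPKM, up to 4 called genes of each list, and Cdh1, Cdh2, Cdh3, Cdh11, Dsp, Jup, Pkp1, Pkp4, Dsg2, Dsc3, Gja1, Gjb2, Gjb6, Cldn1 and Cldn4. Other genes were named after their values were seen. Alternatives were other pseudocounts (0.1 and 5), no filter, quantile normalization, only the compared libraries, a replicate block, no trend, each library left out, fibroblasts left out of the dermal mean, genes at 0 in a population left out, and melanocyte RNA subtracted from fibroblasts. Subtraction of outer root sheath RNA from dermal libraries was added after the data were seen. Both subtractions set negative values to 0 and scaled up what was left to make good the share removed. Coordinates are from GENCODE M21 on mm10 (75 of 76 members). The row Cldn25 (12.7 to 31.5 FPKM in every library) has no coordinate, because its symbol is a synonym of more than 1 gene. Some connexins that enter the counts are not reported here by name.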

Additional observations from a re-analysis of the deposited data

How the results depend on the processing

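With 2 libraries per population and no read counts, genes under about 1 FPKM cannot be ranked, and levels of near-identical genes are uncertain. Of 104 called differences of named genes, 65 kept their call and direction under every alternative run, 33 lost the call under at least 1 and 13 turned direction, all 13 against fibroblasts after melanocyte subtraction. The call was lost by 24 with a pseudocount of 5, by 9 with 0.1, by 21 without 1 library, by 1 with quantile normalization and by 0 with the replicate block.

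Counts of junction genes called moved as follows, given without the matching shares of all genes. These counts, those without 1 library and those with the replicate block thus cannot tell a shift of junction genes from a shift of all genes. With a pseudocount of 0.1 epithelium minus dermal had 15 lower in place of 8, matrix minus outer root sheath 6 higher in place of 11, and sheath minus fibroblasts 3 higher in place of 5. With a pseudocount of 5 epithelium minus dermal had 4 lower, sheath minus fibroblasts 3 higher and 6 lower, papilla minus fibroblasts 3 higher and 5 lower, and sheath minus papilla 3 higher and 3 lower. Quantile normalization gave 1 gene lower in matrix minus outer root sheath. Melanocyte subtraction gave 12 higher in sheath minus fibroblasts, and 13 higher and 6 lower in papilla minus fibroblasts.

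Leaving out 1 library at a time gave 25 to 25 higher and 7 to 9 lower in epithelium minus dermal, 5 to 11 and 0 to 1 in matrix minus outer root sheath, 3 to 5 and 8 to 12 in sheath minus fibroblasts, 2 to 6 and 7 to 10 in papilla minus fibroblasts, 3 to 5 and 3 to 7 in sheath minus papilla, and 7 to 9 and 23 to 26 in melanocytes minus matrix. Sheath minus fibroblasts had 3 higher without the second sheath or the first fibroblast library. Sheath minus papilla had 3 higher without the second sheath library and 3 lower without either papilla library.

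After melanocyte subtraction, sheath minus fibroblasts turned to 2.90 for Cdh1, 2.41 for Cdh3, 0.18 for Gja3, 0.027 for Gjb1, 1.15 for Gjc3 and 0.16 for Cdh19, and papilla minus fibroblasts to 2.93 for Cdh1, 2.96 for Cdh3, 0.85 for Gja3, 0 for Gjb1, 1.11 for Gjc3, 0.54 for Cdh19 and 1.43 for Pkp4. Uncalled differences turned for Cdh1 in matrix minus outer root sheath (-0.041 with quantile normalization, and -0.059 to 0.27 without 1 library) and for Cdh11 in sheath minus papilla (-0.54 to 0.34 without 1 library, turned without the first sheath library at 0.34 and the second papilla library at 0.11). The cause was not tested.

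With the replicate number as a block, counts were 25 higher and 8 lower, 11 and 0, 6 and 12, 6 and 10, 5 and 7, and 10 and 25 in the order above. Gja1 was then called in sheath against fibroblasts (-1.13, adjusted p = 0.0016) and against papilla (-1.04, adjusted p = 0.0026). Deviations of same-numbered libraries correlated at 0.19 to 0.54 over 15 pairs of populations, but the labels do not say that a number marks a shared batch.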
